A study of Mus musculus with 6 samples.

Results

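The lungs of DBA mice were compared with those of C57 mice on 4 of the 6 Affymetrix arrays of the study, with 2 arrays a strain. The members were chosen by their titles: the DBA control and DBA smoked arrays against the C57 control and C57 smoked arrays, with exposure as a block, over all 12422 probe sets that are not control probe sets. The study profiled lung RNA of mice labelled C57, DBA or ICR, with 1 control and 1 smoked array for each of these 3 strains. Smoked mice were given the smoke of 3 cigarettes a day, on 5 days a week, over 4 weeks. Control mice of each strain were not smoked, and no genotype, substrain, sex or age is given in the labels. Every title carries the mouse number 1, without saying if RNA of several mice was pooled. Nothing else in the labels says that the arrays of a strain came from separate litters or days, so p-values measure only the spread between these samples. With 1 array per strain and exposure, that spread is what additive effects of strain and exposure leave over on the 6 arrays. It holds no repeat of the same strain and exposure, and a smoke response that differs between strains counts in it as error. A strain is therefore known here from an unexposed and an exposed array, and a difference counts as a strain difference where both exposures share it.

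Inbred mouse strains differ at many fixed loci. Some differences delete or duplicate a gene, some alter the promoter, and some change a transcript only where a short probe binds it. Whole lung RNA mixes alveolar and airway epithelium, endothelium, immune cells and whatever neighbouring tissue is dissected with it. In such bulk samples fewer cells of a type and less RNA per cell cannot be told apart.

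All 4 arrays carried the defining transcripts of lung. Deposited intensity, the summary of a probe set on a linear scale, was 9123 to 10579 for Sftpc (surfactant protein C of alveolar type II cells), 8040 to 10324 for Scgb1a1 (the secretoglobin of club cells) and 5928 to 6849 for Ager (alveolar type I cells). None of these 3 was called, with log2 differences of -0.04, 0.0044 and -0.02 for DBA minus C57. Sftpc reached the highest value of the data, and all 3 were very bright. Quantile normalization gives the brightest probe sets of every array nearly the same values. This holds their differences near 0, so they do not compare cell content between strains. After normalization the C57 arrays correlated at 0.972 and the DBA arrays at 0.950 across tested probe sets, and arrays of the different strains at 0.902 to 0.929. The 3' to 5' signal ratio of the beta-actin control, a measure of RNA integrity, was 2.75 and 2.51 in C57 and 1.46 and 1.66 in DBA. For Gapdh it was 1.69 and 1.38 in C57 and 0.967 and 0.952 in DBA. RNA integrity thus differed with strain, and its part in the results was not tested.

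Of 7453 probe sets that passed the filter on mean signal, limma called 129 (1.73%) at a Benjamini-Hochberg adjusted p below 0.05. In DBA, 65 were higher (0.872%) and 64 lower (0.859%), and 856 had an unadjusted p below 0.05. Each of the 129 had the same sign among control and among smoked arrays, as did 63.7% of all tested probe sets. The called probe sets were not small differences: the smallest was a log2 value of 1.02, and their standard errors ran from 0.18 to 0.62. Those higher in DBA had a median intensity of 64.6 in C57 and 373 in DBA, and those lower had 463 and 112. Scaling the arrays to a common median gave 139 calls, 38.8% of them higher in DBA, and no scaling gave 85, 75.3% of them higher, against 50.4% here; the median over all tested probe sets was -0.16 and 0.14 in those fits and -0.03 here. Without the filter 67 were called, 60 of them among the 129. Leaving out the C57 smoked array raised the count to 304 (214 higher) and leaving out the DBA smoked array to 206 (131 higher). Without the ICR control array, which shares in the scaling, the filter and the estimate of spread, 99 were higher.

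Each exposure gave its own reading of the strain difference. Among control arrays 633 tested probe sets differed at least 2-fold between strains, and among smoked arrays 354. In both pairs 200 (2.68%) did so in the same direction, 112 higher and 88 lower in DBA, while 20 (0.268%) did so in opposite directions. Across all tested probe sets the 2 differences correlated at 0.477, a description over probe sets that share arrays and are not independent replicates. The plot of the differences by exposure shows the called probe sets in the quadrants of equal sign, which the test itself favours, since it averages both exposures. Some lay far from equality, among them Mmp12 at 4.07 among control and 1.95 among smoked arrays. Alb, Mup3 and Ngp were not called.

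**Figure D1:**
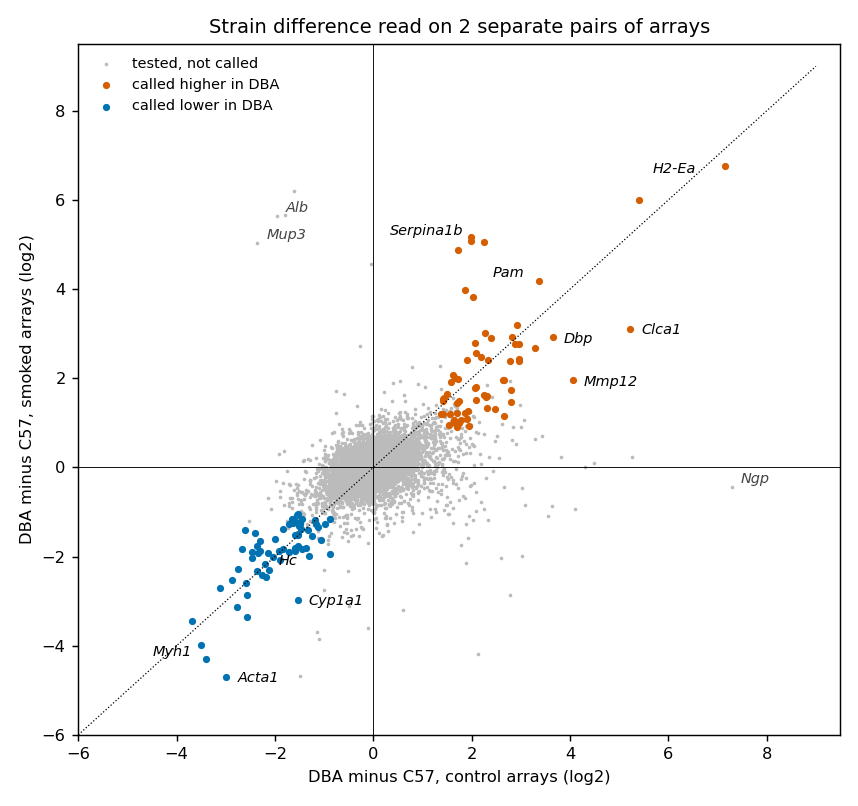
DBA minus C57 (log2) among control arrays on the x axis and among smoked arrays on the y axis, 1 point for each of 7453 tested probe sets, with the dotted line of equality. Called probe sets (65 higher in orange, 64 lower in blue) lie in the quadrants where both differences have the same sign; H2-Ea stands at 7.16 and 6.77, whereas Ngp stands at 7.30 and -0.44.

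By gene, taking the brightest probe set with a single gene symbol, 93 of 5735 tested genes were called (1.62%), 41 higher (0.715%) and 52 lower (0.907%) in DBA. The median difference over all tested genes was -0.05. Lists of genes are described below by their counts of calls and their medians against these values.

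The difference of greatest size was in antigen presentation and lay in a single gene of it. MHC class II molecules are pairs of alpha and beta chains that show peptides to CD4 T cells, and MHC class I heavy chains pair with beta-2 microglobulin. H2-Ea, the alpha chain of the class II molecule E, read 1.96 (control) and 1.83 (smoked) in C57 against 1594 and 1450 in DBA, an order kept in all pairs of values given here. The strains did not overlap, and both C57 arrays read below the constant of 8.05 that was added before taking logs. The fitted log2 difference of 6.96 (SE 0.29, limma adjusted p = 1.86e-05) is therefore set in part by this constant, with values between 5.22 and 8.74 in the alternatives. Some inbred haplotypes are known to carry a deletion in the H2-Ea promoter and make no such transcript; the haplotypes of these mice are not in the labels.

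No other class II gene was called: 1 of 13 tested was higher and 0 lower, with a median of 0.16 (0.12 over the 14 measured). The partner chain H2-Eb1 read 1675 and 1356 in C57 and 2043 and 1462 in DBA (log2 0.16, SE 0.21, limma adjusted p = 0.869). H2-Aa, the alpha chain of the other class II molecule, read 2827 and 2504 in C57 and 3224 and 2730 in DBA (0.08). Cd74, the invariant chain, differed by 0.42 and Ciita, the class II transactivator, by 0.54, and neither passed. The class II median was -0.04 when arrays were scaled to a common median.

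Class I and antigen processing genes had a median of 0.32 over the 18 measured, with 14 of 18 positive, but 1 of 18 was called. That was H2-T24, a nonclassical heavy chain, at 19.1 and 5.98 in C57 and 124 and 134 in DBA (log2 2.43, SE 0.32, limma adjusted p = 0.00694). The brightest probe set of H2-D1, a classical heavy chain, read 3492 and 3542 in C57 and 6640 and 6145 in DBA (0.82, SE 0.17, limma adjusted p = 0.0573). B2m, beta-2 microglobulin, read 1967 and 2453 in C57 and 4043 and 4441 in DBA (0.89, SE 0.20, limma adjusted p = 0.0683). Neither passed, although the strains did not overlap, and 21.3% of tested genes were higher without overlap. A dimmer H2-D1 probe set was called at 2.87, with 282 and 270.4 in C57 and 1908 and 2401 in DBA. Class I genes are highly polymorphic, and whether the strains' sequences differ under these probes was not tested.

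Interferon response genes, many of them induced together with class I, showed 1 call among 27 tested. Iigp1, a GTPase that acts on parasite vacuoles, read 115 and 171 in C57 and 520.5 and 630.4 in DBA (log2 1.80, SE 0.25, limma adjusted p = 0.00789). Its second tested probe set differed by 1.15 (limma adjusted p = 0.0573). The related GTPases Igtp (0.94) and Irgm1 (0.94) and the guanylate-binding proteins Gbp3 (0.94) and Gbp2 (0.82) did not pass. The list median was 0.28, with 21 of 27 positive, and 0.17 under the common median. Ifi202b, an interferon-inducible DNA sensor, fell below the filter on mean signal and was not tested here. It read 3.06 and 6.41 in C57 and 80.6 and 59.0 in DBA.

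Genes at which inbred strains are known to carry variants came next: 4 of 9 tested were called, against 1.62% of all tested genes. H2-Ea, described above, is among them. The list was written with earlier results of these data known, so the count is a description. Hc, which encodes complement component C5 and has a frameshift allele in some inbred strains, read 1452 and 1529 in C57 and 317 and 363 in DBA. The strains were well apart, and Hc was 4.64-fold lower in DBA (log2 -2.21, SE 0.20, limma adjusted p = 0.00192). It was the only one of 13 complement genes called. Its call held in all 16 alternatives, from -2.41 to -2.11.

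Alad, delta-aminolevulinate dehydratase of haem synthesis, is present in extra copies in some strains. It read 358 and 363 in C57 and 898 and 1268 in DBA, 2.78-fold higher (log2 1.48, SE 0.23, limma adjusted p = 0.0127), and missed the threshold without the DBA smoked array (limma adjusted p = 0.0606). Pttg1, securin, which holds back sister chromatid separation, read 828 and 646 in C57 and 182 and 191 in DBA (log2 -2.03, SE 0.25, limma adjusted p = 0.00526). Nnt, the mitochondrial transhydrogenase that is deleted in part in a common C57 substrain, read 90.1 and 76.9 in C57 and 202 and 242 in DBA. At a log2 difference of 1.09 it narrowly missed the threshold (SE 0.24, limma adjusted p = 0.0596). Glo1, glyoxalase 1, whose copy number also varies among strains, stood at 325 and 292 in C57 and 605 and 781 in DBA (1.05, limma adjusted p = 0.0539). For Nnt and Glo1 the strains did not overlap, which was so for 52.5% of all tested probe sets.

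**Figure D2:**
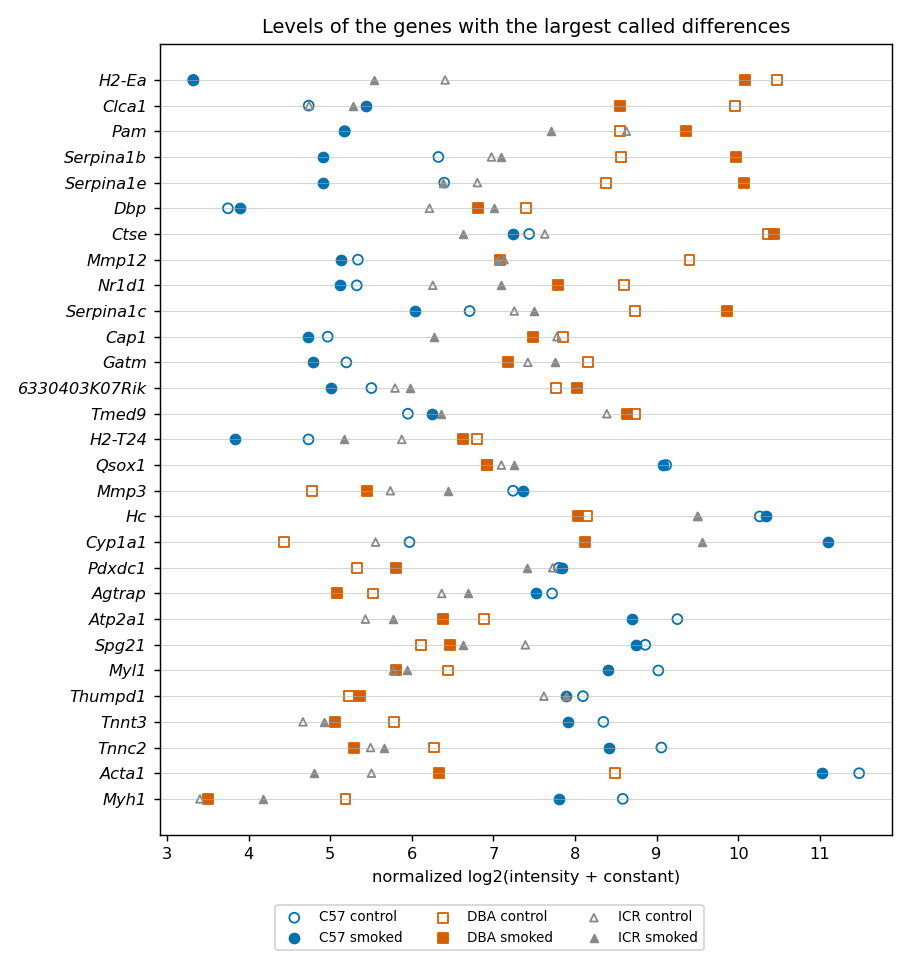
Normalized log2(intensity + 8.05) of the genes with the largest called differences, 1 symbol an array: C57 as circles, DBA as squares, ICR as triangles, open for control and filled for smoked. In each gene but Cyp1a1, whose symbols overlap across exposures, the C57 and DBA symbols are apart, from H2-Ea at the top (log2 difference 6.96) to Myh1 at the bottom (-3.85), while the ICR symbols fall on either side or between.

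Among airway secretory genes, 2 of 16 tested were higher and 1 was lower in DBA, with a median of 0.0046. Clca1, a secreted regulator made by goblet cells, read 19.1 and 36.9 in C57 and 1095 and 520.5 in DBA (log2 4.17, SE 0.47, limma adjusted p = 0.00366). That probe set is the brighter of a pair. The other read 14.9 and 11.7 in C57 and 16.4 and 16.8 in DBA, and it was too dim to be tested. The mucin gene Muc5ac read 3.66 and 1.52 in C57 and 1.95 and 4.23 in DBA, all under the added constant and too dim to show a difference. Agr2, a goblet cell disulphide isomerase, read 32.1 and 34.2 in C57 and 50.1 and 104 in DBA. It was higher in DBA by 0.33 among control and 0.91 among smoked arrays (log2). Both genes fell under the filter and were not tested.

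Ctse, cathepsin E, an aspartic protease of mucosal epithelium and antigen-presenting cells, was called at each of its 3 probe sets. The brightest read 195 and 161 in C57 and 1486 and 1832 in DBA, 8.35-fold higher (log2 3.06, SE 0.29, limma adjusted p = 0.00192). The others were at 2.87 and 2.13, and all 16 alternatives called the brightest. Reg3g, an antibacterial lectin of airway epithelium, was lower in DBA, with 432 and 661 in C57 and 131 and 333 in DBA (-1.44, SE 0.27, limma adjusted p = 0.0322). Without the DBA control array Reg3g missed the threshold (limma adjusted p = 0.209). The club cell genes Scgb1a1 and Cyp2f2 differed by 0.0044 and 0.09, the first held near 0 by the normalization as described above. None of 7 ciliated cell genes was called by limma, and 2 had an unadjusted p below 0.05; after quantile normalization all had negative values, with a median of -0.48, and 6 of them did not overlap, against 31.1% of tested genes that were lower without overlap.

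Matrix proteases and their inhibitors differed in both directions. Mmp12, the elastase of macrophages, read 34.4 and 27.5 in C57 and 745 and 185 in DBA, so the strains were apart and the DBA arrays differed from each other. The difference was 8.04-fold higher (log2 3.01, SE 0.49, limma adjusted p = 0.0170), at 4.07 among control and 1.95 among smoked arrays. It was called in 12 of 16 alternatives, and missed the threshold without the ICR smoked array. It also missed it without the filter (limma adjusted p = 0.0832), with a robust prior (0.0506) and without the exposure block (0.0505). Its neighbour on chromosome 9, Mmp3 or stromelysin 1, went the other way, with 167 and 177 in C57 and 24.3 and 55.5 in DBA (-2.18, SE 0.29, limma adjusted p = 0.00672). Timp2, an inhibitor of matrix metalloproteinases, read 66.2 and 194 in C57 and 484 and 549 in DBA (1.90, SE 0.37, limma adjusted p = 0.0410). Timp2 was called in 7 of 16 alternatives, and lost its call without the C57 control array (limma adjusted p = 0.244), the DBA control array (0.0569), the ICR control array (0.0652) or the ICR smoked array (0.0821). Of the 15 genes of this list tested, the other 12, among them Timp1 (0.22), Timp3 (-0.08) and Mmp14 (-0.45), were not called.

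The antitrypsins, serpins that inhibit neutrophil elastase, had 3 genes called higher in DBA. Serpina1b read 79.6 and 22.6 in C57 and 428 and 1363 in DBA (log2 3.65, SE 0.53, limma adjusted p = 0.0104). Serpina1c read 110 and 62.4 in C57 and 477 and 1272 in DBA (2.93, SE 0.38, limma adjusted p = 0.00601), and Serpina1e differed by 3.57 (SE 0.59, limma adjusted p = 0.0186). These copies lie side by side on chromosome 12 and are nearly identical, so probe sets cannot part them, and they amount to a single observation. For Serpina1b, Serpina1c and Serpina1e the difference was 1.98 to 2.24 among control arrays and 3.83 to 5.16 among smoked arrays. Serpina1c was called in 16 of 16 alternatives. Serpina1b was called in 12 and Serpina1e in 11 of the 16. Both missed the threshold with the C57 and DBA arrays alone (limma adjusted p = 0.0536 and 0.0739). Both also missed it with a robust prior (0.0676 and 0.168) and without the filter (0.0598 and 0.0900). The same held without the ICR smoked array, and for Serpina1e without the ICR control array. The other 14 antiprotease genes tested were not called.

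Liver transcripts read high on the DBA smoked array and not on the DBA control array. Alb, albumin, read 98.7 and 13.5 in C57, 20.6 in DBA control and 1455 in DBA smoked. Mup3, a major urinary protein made in liver, read 51.3 and 7.96 in C57, 3.51 in DBA control and 732 in DBA smoked. Of 8 liver and plasma protein genes tested limma called 0, with 1 at an unadjusted p below 0.05; the summed intensity of the 20 measured was 7353 to 7588 in C57, 7129 in DBA control and 11761 in DBA smoked. The part of liver RNA in the antitrypsin differences was not tested.

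**Figure D3:**
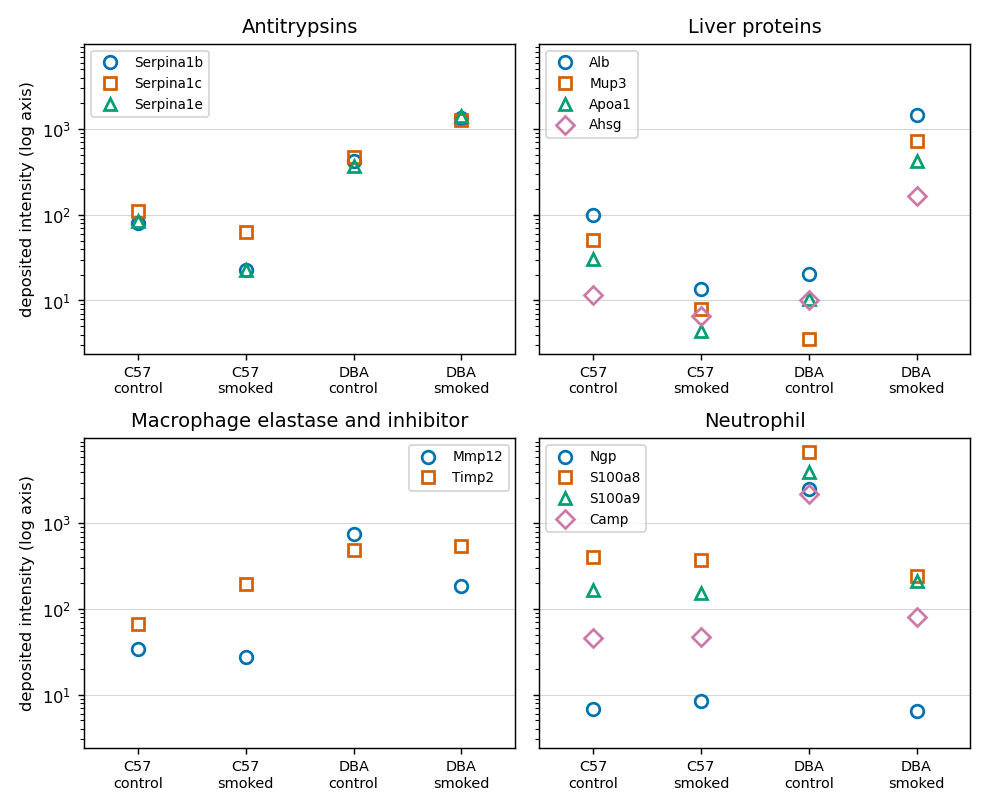
Deposited intensity (log axis) on each of the 4 arrays, 1 symbol a gene, for antitrypsins, liver proteins, Mmp12 with its inhibitor Timp2, and neutrophil genes. Antitrypsins are high on both DBA arrays, the liver proteins on the DBA smoked array alone (Alb 1455), and the neutrophil genes on the DBA control array (Ngp 2551).

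Neutrophil genes gave the reverse pattern, high on the DBA control array. S100a8, a calcium-binding alarmin, read 400.3 and 376 in C57, 6766 in DBA control and 242 in DBA smoked. Ngp, a granule protein, read 6.73 and 8.53 in C57, 2551 in DBA control and 6.42 in DBA smoked. Of 16 neutrophil genes tested limma called 0, with 7 at an unadjusted p below 0.05; their median difference was 1.23, made up of 2.29 among control and 0.01 among smoked arrays, and it was -0.03 without the DBA control array. The summed intensity of the 25 measured was 7921 to 9190 in C57, 29179 in DBA control and 8506 in DBA smoked. Mmp12 was higher on that array too, and the part of inflammatory cells in its difference was not tested. Alveolar macrophage genes, 27 measured, summed to 9878 and 12668 in C57 and 14193 and 11319 in DBA, which overlap. Cxcl1, a neutrophil-attracting chemokine, was the only one of 17 chemokine genes called, at 5.07 and 14.8 in C57 and 69.5 and 91.3 in DBA (log2 1.93, SE 0.33, limma adjusted p = 0.0212). It lost its call without the C57 control array (limma adjusted p = 0.112) or the DBA control array (0.194).

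DBA lung samples carried far less transcript of fast skeletal muscle. Of 18 fast muscle genes tested 7 were called lower and 0 higher, and 17 of 18 were lower without overlap between strains, against 31.1% of tested genes. The list median was -1.21 (-1.18 over the 26 measured), -1.53 among control and -1.27 among smoked arrays. Summed intensity of the 26 was 10710 and 7695 in C57 and 3248 and 3273 in DBA. Acta1, skeletal alpha-actin, read 3232 and 2468 in C57 and 404 and 108 in DBA, 14.3-fold lower (log2 -3.84, SE 0.38, limma adjusted p = 0.00243). Myh1, a fast myosin heavy chain, read 457 and 248 in C57 and 35.6 and 4.61 in DBA (-3.85, SE 0.52, limma adjusted p = 0.00694). The calcium sensor Tnnc2 (-2.95), its partner Tnnt3 (-2.71), the light chain Myl1 (-2.59), the calcium pump Atp2a1 (-2.34) and the Z-disc protein Actn3 (-1.99) were also called. For Myl1 the level was 620 and 381 in C57 and 94.7 and 72.9 in DBA, so that the strains were apart and the DBA arrays close together. The median kept its sign under a common median (-1.37) and with no scaling (-1.07).

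Slow and cardiac muscle genes had medians nearer 0. Slow muscle had 1 of 11 tested lower and 1 higher, with a median of 0.13 (-0.10 under the common median): Myl3, a light chain of slow and ventricular muscle, was at -1.41 (SE 0.26, limma adjusted p = 0.0309), and Tnnt1, slow troponin T, at 1.85 (SE 0.26, limma adjusted p = 0.00859). Myl3 lost its call without the C57 control array (limma adjusted p = 0.226) or the DBA control array (0.198). Cardiac genes, which in mouse lung come from the sleeve of pulmonary vein myocardium, had 0 of 11 called by limma, 1 with an unadjusted p below 0.05, and a median of -0.19, which was 0.10 without the C57 control and 0.12 without the DBA control array. Myh6, the atrial myosin heavy chain, read 803 and 550.2 in C57 and 505 and 1011 in DBA, which overlap.

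Of 12 genes of stratified squamous epithelium tested 3 were called lower in DBA and 0 higher, with a median of -1.27 among those tested but -0.23 over the 27 measured, most of which were dim. Without the filter on mean signal limma called 0 of the 27, with 11 at an unadjusted p below 0.05. Sfn, 14-3-3 sigma of squamous cells, read 164 and 235 in C57 and 60.9 and 79.4 in DBA (log2 -1.59, SE 0.28, limma adjusted p = 0.0234). Perp, a desmosomal protein, was at -1.23, and Gsto1, an omega glutathione transferase, at -1.31. Gsto1 is also counted among the glutathione transferases and was brighter, with 1543 and 1544 in C57 and 488 and 856 in DBA. The most restricted markers did not pass: Krt13, an oesophageal keratin, read 160 and 413 in C57 and 72.5 and 26.9 in DBA (-2.47, SE 0.54, limma adjusted p = 0.0608), and Krt4 was at -1.80. Basal markers were near the floor in both strains, with Krt5 at 14.5 and 6.19 in C57 and 5.98 and 11.7 in DBA. The part of neighbouring tissue in the muscle and squamous differences was not tested. Sfn lost its call without the C57 smoked (limma adjusted p = 0.156) or the DBA smoked array (0.0526), Gsto1 without the C57 control (0.0737) or DBA control array (0.201), and Perp without any of the 4 arrays (0.0967 to 0.192).

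**Figure D4:**
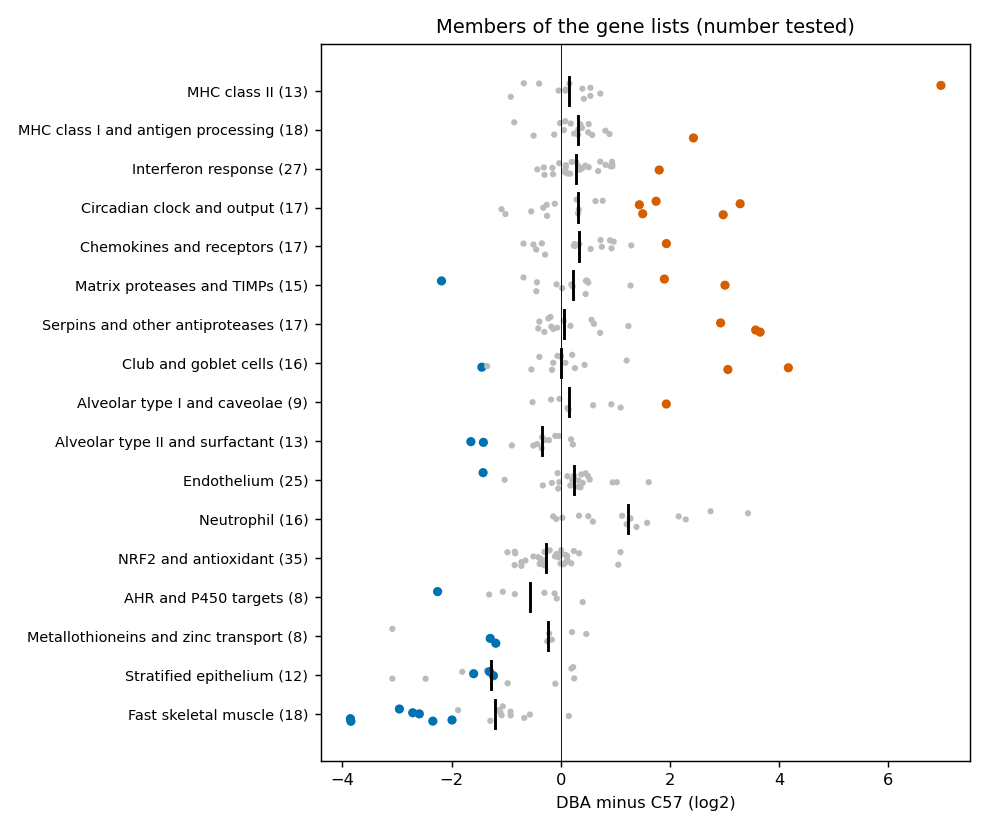
DBA minus C57 (log2) of each tested member of the gene lists, 1 point a gene, grey where not called, orange where higher and blue where lower; black bars are medians, and the number tested is in brackets. Fast skeletal muscle (median -1.21) and stratified epithelium (-1.27 among the 12 tested, -0.23 over the 27 measured) lie left of 0, whereas the clock list has 5 called genes on the right and a median of 0.32.

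In the mammalian clock, Arntl with its partner drives transcription from E-boxes, Per and Cry proteins feed back on it, and Nr1d1 and Nr1d2 repress Arntl. Dbp, a transcription factor of clock output, binds D-boxes, which are known in Per genes. Of 17 clock genes tested 5 were called higher in DBA and 0 lower, with a median of 0.32 (0.29 over the 19 measured). Dbp read 5.46 and 6.56 in C57, under the added constant, and 188 and 153 in DBA (log2 3.29, SE 0.36, limma adjusted p = 0.00352); alternatives gave 2.10 to 4.23. Nr1d1 read 33.9 and 27.3 in C57 and 439 and 306 in DBA, 7.86-fold higher (2.97, SE 0.37, limma adjusted p = 0.00561). In both genes the exposures agreed closely within a strain and the strains were far apart.

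Nr1d2 read 114 and 70.7 in C57 and 367 and 378 in DBA (log2 1.75, SE 0.25, limma adjusted p = 0.00960). Per3 read 67.7 and 61.6 in C57 and 215 and 266 in DBA (1.5, SE 0.25, limma adjusted p = 0.0172). Csnk1e, a kinase that marks Per proteins for decay, was the weakest at 1.44 (limma adjusted p = 0.0468), and lost its call without the C57 control (0.491), DBA control (0.250), ICR control (0.0664) or ICR smoked array (0.0847). Arntl read 122 and 113 in C57 and 39.3 and 95.0 in DBA (-1.08, limma adjusted p = 0.203), and Cry1 read 456 and 492 in C57 and 216 and 291 in DBA (-1.01, limma adjusted p = 0.0714). Neither passed, though both had lower levels in DBA without overlap, as did 31.1% of tested genes. The remaining Per genes were closer, at 0.64 for Per1 and 0.29 for Per2. The labels give no hour of collection.

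The promoters of the 5 called clock genes were searched in the 200 bases before each listed start site (RefSeq, GRCm38.p6) for the E-box CACGTG and the D-boxes TTATGTAA and TTACGTAA, on both strands. No E-box match was found, and a D-box was found at Per3 alone; 0.783% of 32841 such stretches hold a D-box and 5.26% an E-box. The Per3 stretch is printed because Dbp and Per3 were both higher in DBA; it lies at chr4:151044666-151044865 on the minus strand, with the D-box in capitals. A match describes letters in the reference and not binding.
Per3: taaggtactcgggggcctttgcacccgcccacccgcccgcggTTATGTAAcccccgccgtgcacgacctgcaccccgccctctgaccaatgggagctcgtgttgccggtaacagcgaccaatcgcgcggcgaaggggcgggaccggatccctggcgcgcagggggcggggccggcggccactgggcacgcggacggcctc

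Metallothioneins, small proteins that bind zinc and copper and are induced by metals and glucocorticoids, were lower in DBA. Mt1 read 1336 and 832 in C57 and 434 and 485 in DBA (log2 -1.29, SE 0.25, limma adjusted p = 0.0362). Mt2 read 1512 and 1254 in C57 and 607 and 647 in DBA (-1.19, SE 0.21, limma adjusted p = 0.0261). The strains did not overlap in either gene, and 31.1% of tested genes were lower without overlap. Each gene was called in 10 of 16 alternatives. Both calls were lost without the C57 control, the DBA control or the DBA smoked array. Both were also lost without the filter (limma adjusted p = 0.0834 and 0.0645), with no scaling (0.957 and 0.941) and without the mean trend (0.0692 and 0.0686). Mt4, the squamous form, read 219 and 312 in C57 and 74.6 and 4.07 in DBA (-3.08, limma adjusted p = 0.0543) and did not pass. Of 8 genes of metallothioneins and zinc transport tested, 2 were lower and 0 higher, with a median of -0.23. Among 23 glucocorticoid response genes, Mt1 and Mt2 were lower and Klf9, a zinc finger factor, higher (1.31, SE 0.23, limma adjusted p = 0.0261), while Fkbp5, the immunophilin of the receptor complex, differed by 0.12. Klf9 was called in 11 of 16 alternatives, and lost its call without the DBA control array. It was also lost without the filter (limma adjusted p = 0.0665), under the common median (0.0574), with no scaling (0.572) and without the mean trend (0.0575).

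Mt1 and Mt2 are neighbours on chromosome 8, and their upstream stretches are shown because the genes were lower together. Each stretch is the 200 bases before the listed start site. Matches outside it are not shown, so the capitals do not give all such letters of a promoter. The metal response element core was searched as TGCACNC or TGCGCNC on both strands (capitals); 18.2% of stretches hold at least 1 match and 4.00% hold 2 or more. Mt1 is at chr8:94178889-94179088 and Mt2 at chr8:94172418-94172617, both on the plus strand of GRCm38.p6.
Mt1: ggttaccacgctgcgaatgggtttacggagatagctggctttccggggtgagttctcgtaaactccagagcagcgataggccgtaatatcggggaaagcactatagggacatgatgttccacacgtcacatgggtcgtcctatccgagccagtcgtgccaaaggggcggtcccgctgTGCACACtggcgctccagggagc
Mt2: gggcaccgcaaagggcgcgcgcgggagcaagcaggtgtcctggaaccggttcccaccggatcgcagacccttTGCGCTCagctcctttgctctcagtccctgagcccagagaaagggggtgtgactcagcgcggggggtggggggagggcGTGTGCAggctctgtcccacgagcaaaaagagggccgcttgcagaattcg

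The aryl hydrocarbon receptor binds smoke hydrocarbons and induces P450 enzymes; of 8 of its target genes tested 1 was lower in DBA and 0 higher, with a median of -0.57. Cyp1a1, its most sensitive target, read 58.8 in C57 control, 2552 in C57 smoked, 16.9 in DBA control and 385 in DBA smoked. Within each exposure DBA was lower, by 1.54 on the log2 scale among control and 2.97 among smoked arrays (fit -2.25, SE 0.34, limma adjusted p = 0.0127). The gene differed more between exposures than between strains, and its call ended without the exposure block (limma adjusted p = 0.668). Cyp1b1 read 124 and 638 in C57 and 47.1 and 319 in DBA (-1.31, limma adjusted p = 0.0707). Aldh3a1, an aldehyde dehydrogenase, was at -1.06 and Nqo1, a quinone reductase, at -0.84, and neither passed. Some strains are known to carry a receptor allele of low affinity, and no label gives the allele here. Of 35 antioxidant genes tested limma called 0 at their brightest probe set, with 8 at an unadjusted p below 0.05 (median -0.27), Hmox1 (haem oxygenase 1) differing by 0.12 and Gpx2 (epithelial glutathione peroxidase) by -0.50. Gsto1 was the only one of 16 glutathione transferases called.

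Of alveolar and vascular genes, few were called. Emp2, a tetraspan membrane protein abundant in type I cells, read 426 and 652 in C57 and 1694 and 2519 in DBA, 3.82-fold higher (log2 1.93, SE 0.20, limma adjusted p = 0.00258). It was the only one of 9 type I and caveolar genes called, and every alternative of 16 called it. In type II cells, Napsa, the aspartic protease that processes surfactant protein B, read 3324 and 3430 in C57 and 1352 and 985 in DBA (-1.65, SE 0.28, limma adjusted p = 0.0218). Chil1, a chitinase-like lectin of type II cells and macrophages, read 1028 and 1422 in C57 and 509 and 438 in DBA (-1.42, SE 0.27, limma adjusted p = 0.0332). Chil1 lost its call without the C57 smoked (limma adjusted p = 0.147), DBA smoked (0.157), ICR control (0.0652) or ICR smoked array (0.0802). The other 11 of 13 type II genes, with Sftpb at -0.34, were not called, and the median was -0.34. Of 25 endothelial genes 1 was called, the transcription factor Sox17 (-1.42, SE 0.23, limma adjusted p = 0.0153), which lost its call without the DBA control array (0.0763) and whose second probe set was at -0.20. Cdh5, the endothelial cadherin, differed by 0.17.

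The following lists held no limma call. B and plasma cell genes had 0 of 16 called (2 at an unadjusted p below 0.05; median -0.17), T and cytotoxic cells 0 of 11 (1; -0.14) and alveolar macrophages 0 of 20 (1; -0.08). Fat genes had 0 of 14 (1; -0.23) and mesothelium 0 of 9 (0; -0.18). Smooth muscle had 0 of 13 (2; 0.12) and matrix 0 of 33 (5; 0.08), and both medians turned negative under the common median, at -0.11 and -0.13. Heat shock chaperones gave 0 of 25 (4; -0.28) and cell cycle genes 0 of 26 (2; -0.13). Among immediate early genes Phlda1, a pleckstrin-homology protein induced by growth signals, was called alone of 29, with 391 and 346 in C57 and 71.7 and 132 in DBA (log2 -1.98, SE 0.25, limma adjusted p = 0.00582). Of 35 respiratory chain genes Ndufa7, a subunit of complex I, was the single call (-1.40, SE 0.21, limma adjusted p = 0.0125), with a median of -0.26.

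Several of the largest differences fell outside the lists. Pam, which amidates neuropeptides, read 29.6 and 28.6 in C57 and 423 and 884 in DBA, 13.8-fold higher (log2 3.78, SE 0.37, limma adjusted p = 0.00239). Gatm, the first enzyme of creatine synthesis, read 30.3 and 19.96 in C57 and 321 and 201 in DBA (2.68, SE 0.33). Cap1, an actin-binding protein, was at 2.82, Tmed9, a cargo receptor of the early secretory pathway, at 2.59, and 6330403K07Rik at 2.64. Lower in DBA were Thumpd1, an RNA acetylation adaptor (320 and 264 in C57, 37.1 and 51.2 in DBA; -2.69, SE 0.25, limma adjusted p = 0.00192), and Spg21 (-2.52). Agtrap, which binds the type 1 angiotensin receptor, was at -2.32, and Qsox1, a sulphydryl oxidase, at -2.18 with its other tested probe set at 0.36. In these genes C57 and DBA arrays did not overlap, which the call itself favours and which was so for 52.5% of all tested probe sets.

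Probe sets of the same gene did not always share a call, though a probe set without a call need not disagree with a called one. Of 883 genes with at least 2 tested probe sets, 26 had at least 1 called. In 3 all were called in the same direction (Ctse, Serpina1c and Atp2a1), in 22 some were not called, and in 1, Pdxdc1, calls went both ways. In 16 of the 26 all tested probe sets had the same sign, and this share was not counted over all 883 genes. Pdxdc1, a pyridoxal-dependent decarboxylase, was at -2.26 and -2.07 by a pair of probe sets and at 5.70 by another, which read 4.68 and 3.94 in C57, 595 and 1047 in DBA, and 3.12 and 3.86 in ICR.

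Ctsc, cathepsin C, which activates granule proteases, was not called at its brightest probe set (log2 0.49, limma adjusted p = 0.671). Another probe set read 348 and 327 in C57 and 22.9 and 15.8 in DBA (-3.74, SE 0.33, limma adjusted p = 0.00192). One more, too dim for the filter, read 87.8 and 62.0 in C57 and 2.57 and 3.30 in DBA. Prdx2, a peroxiredoxin, differed by -0.30 at 1255 and 1117 in C57 against 882 and 1125 in DBA, while a dimmer probe set was called at -2.00. For such genes the array gives no single level difference between strains.

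**Figure D5:**
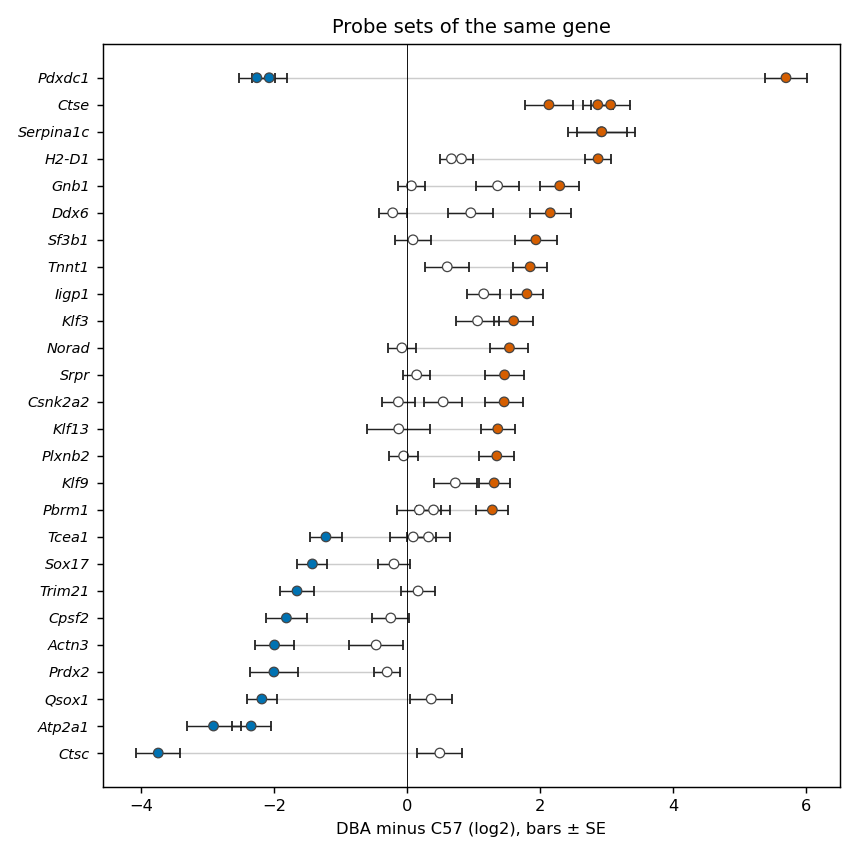
DBA minus C57 (log2, bars ± SE) of every tested probe set of the 26 genes with at least 2 tested probe sets and at least 1 call; filled symbols are called (orange higher, blue lower), open ones are not, and pale lines join the probe sets of a gene. Probe sets of Ctse lie together between 2.13 and 3.06, whereas those of Pdxdc1 span -2.26 to 5.70.

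By chromosome, 14 of 301 tested genes on chromosome 1 were called, 4 higher and 10 lower (4.65%), and 13 of 443 on chromosome 7 (2.93%), against 1.62% over all genes. These counts are descriptions, since neighbouring genes share haplotypes. Called genes that are direct neighbours among tested genes were the Serpina1 copies, Mt1 with Mt2, Napsa with Myh14 (a nonmuscle myosin, -1.37), and Mmp12 with Mmp3.

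The ICR arrays entered the scaling, the filter and the estimate of spread but not the contrast itself. With the 4 C57 and DBA arrays alone 153 probe sets were called, 110 of them among the 129. ICR held levels between the strains for 91 of the 129 called probe sets. A call requires C57 and DBA to lie apart, which itself favours a level between them. The share over all tested probe sets was not counted, so this count is no result about ICR. The ICR mean lay nearer C57 for 35 of the 65 called probe sets higher in DBA and for 27 of the 64 lower. H2-Ea read 71.6 and 17.7 in ICR control and smoked, above C57 and below DBA. Pam at 358 and 93.7 and Thumpd1 at 175 and 106 also lay between them. Clca1, at 16.9 and 14.4, read near C57, and the fast muscle gene Acta1, at 34.7 and 9.75, read below DBA. Both comparisons with ICR would share arrays with this one and were not made.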

How the data were processed

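The members and gene lists were chosen with earlier results of these data known. Per the labels' protocols, lung RNA was reverse-transcribed from an oligo(dT) primer and biotin-labelled. The deposited values are probe set intensity on a linear scale, made by the authors; how they were summarised and scaled was not given in the sources used here. Medians of the 6 arrays spanned 1.45 on the log2 scale. Median intensity was 60.3 and 60.6 in C57, 68.9 and 85.0 in DBA, and 52.5 and 26.0 in ICR (control and smoked). The 66 control probe sets were left out of 12488. Values were taken as log2(value + 8.05), 8.05 being the 20th percentile, then quantile normalized, and the 7453 probe sets whose mean signal exceeded the 40th percentile were tested. Strain and exposure were fitted on all 6 arrays with limma 3.58.1 in R 4.3.3 (lmFit, eBayes with trend; 2 residual degrees of freedom), 2-sided, with Benjamini-Hochberg adjustment over the 7453. The script was tested on simulated data. A probe set was called at an adjusted p below 0.05. A single gene symbol was given for 10833 of 12422 probe sets, several for 396 and none for 1193; 10817 matched the GRCm38.p6 table by identifier. A gene stands for its brightest 1-symbol probe set. Named were the 15 largest called differences each way, called list members, list members as examples, and up to 5 genes each way with opposite differences of at least 2-fold between exposures. A probe set annotated Mir686 is left out, since no mature miRNA was matched to it. Alternatives were 16: other constants, filters, scalings, priors, no block, 4 arrays, and each array left out. The number of arrays limits precision. Plots used matplotlib 3.10.9 in Python 3.11.15.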

Additional observations from a re-analysis of the deposited data

Results flagged for a closer look

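Differences of at least 2-fold that pointed opposite ways on the control and on the smoked arrays were found for 9 genes, 7 higher in DBA control and 2 lower. With 1 array per strain and exposure, the difference between exposures was not tested for any of them. Of the first kind, the 5 with the largest smaller side included 3 immunoglobulin chains: Igkv6-14 (log2 DBA minus C57 3.01 among control and -1.98 among smoked arrays), Igkv6-23 (1.93 and -1.58) and Ighg3 (2.33 and -1.18). Such chains are clonal and nearly identical to their relatives. Chil3, a chitinase-like protein of activated macrophages, stood at 1.88 and -2.15, with 660 and 1663 in C57 and 2262 and 447 in DBA. Ltb4r1, the leukotriene B4 receptor of leukocytes, stood at 1.62 and -1.25. Of the second kind were the liver products Mup3 (-2.36 and 5.05) and Alb (-1.96 and 5.64).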

How the results depend on the processing

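None of the 54 called genes followed through the alternatives changed sign. The medians of 23 of the 43 gene lists did in at least 1, among them neutrophil genes without the DBA control array (1.23 to -0.03). Of 112 alternative values of the genes with opposite differences between exposures, none of them called, 25 were classed as moved and 87 as the same. Of 48 alternative values for the counts of calls, 38 stayed within 1.5 times of the reported one. Those that moved were the counts without a filter (67 in all, 30 higher and 37 lower), with no scaling (85 in all, 21 lower), without the C57 smoked array (304, 214 higher), without the DBA smoked array (206, 131 higher) and without the ICR control array (99 higher). Leaving out each array gave 128 to 304 calls, 66 to 214 higher and 62 to 90 lower. Of the 129 probe sets called, 60 were still called without a filter, 117 under a common median and 59 with no scaling. The cause was not tested. Of 846 single-gene values in the alternatives 737 kept their call and 109 lost it; without a filter 33 of 54 genes kept it, and with no scaling 31 of 53. No paired analysis was possible because every title carries the mouse number 1, so groups share fewer than 2 numbers; exposure is already the block. With 2 residual degrees of freedom the test leans on the spread shared between probe sets. For single genes above, lost calls are given mostly for arrays left out, and several of these genes also lost theirs without a filter or with no scaling.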

Other observations

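Some called genes outside the lists were chosen for this paragraph after their values were seen. Itln1, an intestinal and airway lectin, read 40.8 and 40.8 in C57 and 365 and 217 in DBA (log2 2.27, SE 0.38, limma adjusted p = 0.0181). Hbb-b2, an adult beta-globin gene of a locus with several haplotypes, read 1256 and 1816 in C57 and 4024 and 3808 in DBA (1.31, SE 0.22). Plat, tissue plasminogen activator, was at 1.34 and Fzd4, a Wnt receptor of endothelium, at 1.37. Lower in DBA were the retinol dehydrogenase Adh7 (-1.70), the ribonuclease Rnase4 (-1.65), the peroxisomal transporter Abcd3 (-1.54), the growth factor binding protein Igfbp2 (-1.39) and the ion transport regulator Fxyd3 (-1.56).

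Without the filter limma called 7 of the dim probe sets, among them a fast myosin heavy chain, Myh8 (-3.17, adjusted p = 0.0483), with 204 and 163 in C57 and 31.8 and 3.10 in DBA. The dim Ctsc probe set (-2.88, adjusted p = 0.0315) pointed the same way as its called partner. Mmp8, neutrophil collagenase, read 6.75 and 5.17 in C57, 475 in DBA control and 5.89 in DBA smoked.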
